A study of Arabidopsis thaliana with 6 samples.

Results

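Rubisco is the enzyme that fixes CO2 in photosynthesis, and the transcripts of 10 nuclear genes of the Calvin cycle were measured in leaves of ddcc and wild-type Arabidopsis thaliana. The genes were taken by locus for their function: the small subunits of Rubisco RBCS1A (AT1G67090), RBCS1B (AT5G38430), RBCS2B (AT5G38420) and RBCS3B (AT5G38410), Rubisco activase RCA (AT2G39730), the plastid glyceraldehyde-3-phosphate dehydrogenase genes GAPA1 (AT3G26650), GAPA2 (AT1G12900) and GAPB (AT1G42970), sedoheptulose-1,7-bisphosphatase SBPASE (AT3G55800) and phosphoribulokinase PRK (AT1G32060). All 10 were found among the 31335 genes of the deposited count table, and all 10 had a model in the RefSeq annotation. The ddcc plants carry drm1, drm2, cmt2 and cmt3 together, that is, mutations in the DRM and CMT DNA methyltransferases that act mainly on cytosines outside CG sites. The labels do not name the alleles. Leaves of 3 ddcc and 3 wild-type libraries came from plants of the Col-0 accession, 28 days old, grown on soil at 21 °C with 16 h of light and 8 h of darkness. Stratification, at 4 °C for 48 h, was the same for both genotypes. Whether the 3 libraries of a genotype came from separate plants or pools is not given, so p-values measure the spread between these libraries, which may be technical.

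The Calvin cycle runs in the chloroplast stroma in stages. Rubisco joins CO2 to ribulose-1,5-bisphosphate, the product is reduced to triose phosphate with ATP and NADPH from the light reactions, and the remaining enzymes regenerate the acceptor. The large subunit of Rubisco is encoded in the plastid genome and the small subunit by a nuclear gene family, and small subunit transcripts are among the most abundant messenger RNAs of a green leaf. Rubisco activase removes inhibitory sugar phosphates from the active site, and several of the enzymes are switched on in the light by thioredoxins.

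The 4 small subunit genes are close copies, which bears on how reads can be assigned to each. RBCS1A lies on the minus strand of chromosome 1 at 25048158 to 25049667 (TAIR10.1, the build of all positions here). The others lie in tandem on the minus strand of chromosome 5, with RBCS3B at 15376988 to 15378642, RBCS2B at 15380907 to 15382071 and RBCS1B at 15383167 to 15385320. Each of the 4 has 3 exons over its annotated transcripts. Their coding sequences were 96.7% to 97.3% identical among the chromosome 5 genes, and RBCS1A was 90.4% to 90.6% identical to those. The 60 coding bases that differ most among the 4 genes are printed to show the letters on which a read can be told apart. They start at base 20 of each coding sequence, were read from the RefSeq genome in the direction of transcription, and have the 16 differing positions in capitals.
RBCS1A: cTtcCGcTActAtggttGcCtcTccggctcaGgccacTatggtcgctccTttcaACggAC
RBCS1B: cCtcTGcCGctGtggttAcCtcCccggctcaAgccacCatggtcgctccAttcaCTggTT
RBCS2B: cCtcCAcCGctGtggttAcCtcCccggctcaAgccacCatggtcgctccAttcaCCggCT
RBCS3B: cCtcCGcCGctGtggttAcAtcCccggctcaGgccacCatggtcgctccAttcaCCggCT

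At the other extreme, the 60 coding bases most alike in the 4 genes have a single differing position, and the chromosome 5 genes are the same throughout it.
RBCS1A: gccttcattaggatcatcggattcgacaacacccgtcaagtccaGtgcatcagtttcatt
RBCS3B: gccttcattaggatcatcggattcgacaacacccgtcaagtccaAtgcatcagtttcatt
Across whole exons, 100% of the 50-base windows of RBCS1A occurred nowhere else in the genome on either strand, against 88.0% for RBCS1B, 83.1% for RBCS2B and 83.5% for RBCS3B. For the other 6 genes the share was 100%. In windows of 100 bases the share was 91.8% for RBCS1B, 100% for RBCS2B and 88.2% for RBCS3B. Exons of neighbours on the opposite strand lie over 0.143% of the exon bases of RCA and 1.75% of those of PRK, and a neighbour on the same strand over 0.742% of those of GAPA1. How reads with several matches were counted is not given in the sources used here. As one view of it, AT5G36700 (PGLP1, a photorespiration gene) and AT5G36790 are a gene pair that shares 90.2% of its 100-base windows. In ddcc they held 1, 0 and 1 and 10, 7 and 14 counts, against 4, 2 and 0 and 15, 23 and 9 in wild type. Both had few counts, and whether shared reads were dropped or divided was not tested. The values of RBCS1B, RBCS2B and RBCS3B are therefore uncertain in how shared reads were divided among them or left out.

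The upstream sequences of the small subunit genes held motifs known from light-regulated plant promoters. In the 250 bases before the start of the annotated transcript whose start lies nearest to the coding sequence, the G-box CACGTG was found upstream of 5 of the 10 genes, namely RBCS1A, RBCS2B, RBCS3B, RCA and PRK, and in 6.73% of 27443 promoters of that length. The I-box GATAAG, searched on both strands, was found upstream of all 4 small subunit genes and of none of the other 6, and in 12.6% of promoters. TATAAA was found upstream of RBCS1A and SBPASE, and in 46.5% of promoters. RBCS1B was the small subunit gene without CACGTG in its window. No G-box overlapped an I-box, and the I-box copies of RBCS1B share a base. A match is a description of the letters and not a binding site. The 30 bases around each small subunit G-box, and around 1 of the I-boxes of RBCS1B, show how alike RBCS2B and RBCS3B are here. The motif each window was cut around is in capitals, and all sequences are in the direction of transcription, from the minus strand. Other I-box matches inside these windows are left in lower case: CTTATC, the I-box on the opposite strand, in RBCS2B and RBCS3B, and the overlapping second copy in RBCS1B.
RBCS1A, chr1:25049491-25049520: ggaattatcttcCACGTGgcattattccag
RBCS2B, chr5:15382177-15382206: ggagttttctgcCACGTGatcttatcctag
RBCS3B, chr5:15378506-15378535: ggagttttctgcCACGTGgccttatcctag
RBCS1B, chr5:15385303-15385332: aaagaaagataaGATAAGggtgtcaacacc
The RBCS1A and RBCS3B windows lie inside the annotated span of their genes, which have longer transcripts, the RBCS1B window lies partly inside it, and the RBCS2B window lies upstream of it.

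Library totals ran from 17265251 to 18809306 counts in ddcc and from 15188586 to 17644256 in wild type. The mutated genes matched the genotype labels as far as they could be measured, with DRM2, CMT2 and CMT3 lower in ddcc (log2 fold changes of −1.14, −0.46 and −1.69), while DRM1 held 0 or 1 count in every library and checked nothing. On the second principal component, with 7.71% of the variance, ddcc replicate 2 stood apart from the other ddcc libraries, at −28.0 against 20.9 and 6.02. Of 7 flower markers none exceeded 7 counts in a library and AP1 was at 0 throughout, and of 6 root markers none exceeded 2 counts. The 8 leaf markers were all detected, at a summed 184 to 196 CPM (counts scaled by library size) in ddcc and 212 to 226 CPM in wild type, with 3 of the 8 called lower in ddcc.

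Of the 10 genes, 6 were called lower and none higher in ddcc leaves. The lower ones were RBCS1A, RBCS2B, RBCS3B, RCA, GAPA2 and SBPASE. The fall was small in each, and the largest were in GAPA2 and RBCS3B. RBCS1B, GAPA1, GAPB and PRK did not pass the test, which was edgeR's quasi-likelihood test at a Benjamini-Hochberg adjusted p under 0.05 over all 18498 features tested. By that rule 12.7% of all features tested were called lower and 15.5% higher, 28.2% in all. Among the 362 tested genes with a mean count at least that of the lowest of the 10 genes, 33.4% were called lower and 23.8% higher. The median log2 fold change of the 10 genes was −0.18, beside −0.003 for all features tested and −0.07 for those 362 genes. The count of 6 was smaller without ddcc replicate 1 (3), ddcc replicate 3 (2) or wild-type replicate 2 (3). The CPM values of the genotypes did not overlap for 7 of the 10, each lower in ddcc, where 21.0% of all features showed that, and for none was ddcc wholly above wild type, where 22.5% of features did. In whole leaves, fewer cells of a type and less RNA per cell cannot be told apart.

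**Figure D1:**
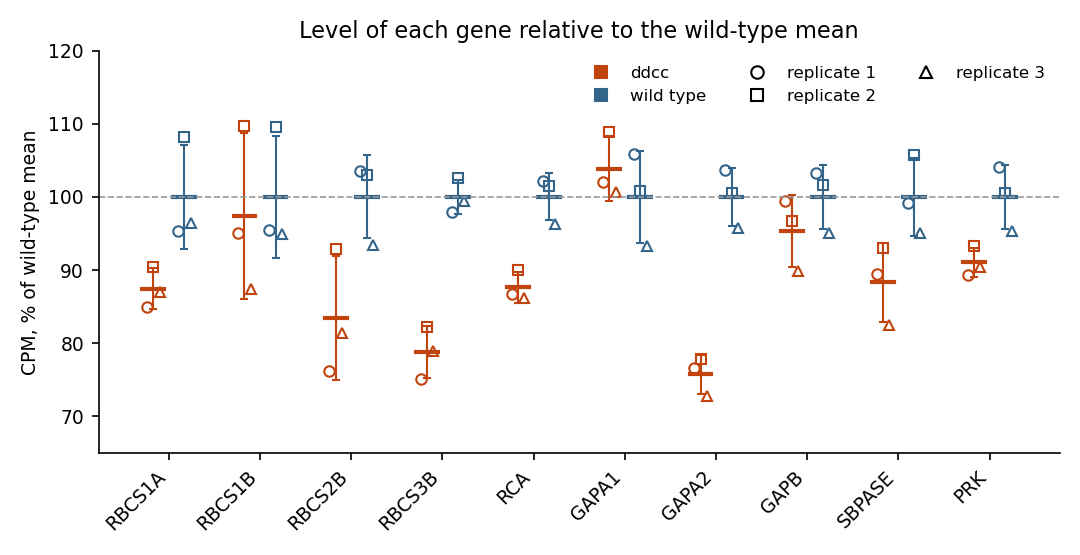
Transcript level of each of the 10 genes in each library, as CPM in percent of the wild-type mean (vertical axis, which does not start at 0), with ddcc in orange left of wild type in blue. Bars give the mean and SD of 3 libraries and symbols the replicates; ddcc lies below wild type without overlap for every gene except RBCS1B, GAPA1 and GAPB.

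RBCS1A encodes the most abundant small subunit transcript of the leaf and was the gene with the third highest count of all in the table. It had 13438, 14305 and 13765 CPM in ddcc leaves, against 15086, 17114 and 15262 CPM in wild-type leaves. The groups did not overlap, and wild-type replicate 2 stood above the other wild-type libraries. The log2 fold change was −0.19 (SE 0.06, 95% interval −0.33 to −0.06, edgeR adjusted p = 0.0342). The call was lost on library totals without a composition factor (adjusted p = 0.0516), without ddcc replicate 1 (0.0947), without ddcc replicate 3 (0.0957) and without wild-type replicate 2 (0.112), with a log2 fold change between −0.22 and −0.13 in all 15 alternatives.

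RBCS3B, the most abundant of the chromosome 5 genes, changed more. It had 4094, 4479 and 4297 CPM in ddcc leaves, against 5336, 5586 and 5419 CPM in wild-type leaves. All 3 ddcc libraries lay well below the lowest wild-type library. The level fell by 21.2% (log2 fold change −0.34, SE 0.05, 95% interval −0.46 to −0.23, adjusted p = 6.76e-04), and the call held in all 15 alternatives.

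RBCS2B had 1149, 1400.5 and 1228 CPM in ddcc leaves, against 1562, 1554 and 1410.1 CPM in wild-type leaves. The highest ddcc library, replicate 2, came within 1% of the lowest wild-type library, so the groups met closely without overlapping. The log2 fold change was −0.26 (SE 0.07, 95% interval −0.42 to −0.10, adjusted p = 0.0232). It was no longer called without ddcc replicate 1 (adjusted p = 0.0771), ddcc replicate 3 (0.0796), wild-type replicate 1 (0.0769) or wild-type replicate 2 (0.0820).

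RBCS1B, the least abundant small subunit transcript, had 289, 334 and 265 CPM in ddcc leaves, against 290.1, 333 and 289 CPM in wild-type leaves. The genotypes overlapped, and in both the second replicate was the highest. The log2 fold change was −0.04 (SE 0.09, adjusted p = 0.777), and its 95% interval of −0.23 to 0.15 did not extend to the value fitted for RBCS3B. Its sign turned without ddcc replicate 3 (0.04) and without wild-type replicate 2 (0.03).

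Taken as a family, the 4 small subunit genes held 1.94%, 2.08% and 1.96% of all counts in the ddcc libraries, against 2.16%, 2.43% and 2.24% in the wild-type libraries. The ddcc libraries were all below the wild-type ones. The means were 1.99 ± 0.0774% and 2.28 ± 0.137% (SD, n = 3 each), a ratio of 0.873, and the exact permutation test, two-sided, gave p = 0.1. That is the smallest p which 3 libraries against 3 can give. A library's 95% Wilson interval on this share was 0.0125 to 0.0149 percentage points wide, which covers counting error only. The comparison was 1 of 8 shares and ratios compared in this way, and the Benjamini-Hochberg adjusted p over them was 0.16 here.

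Within the family the shares of RBCS1A, RBCS1B and RBCS3B did not overlap between the genotypes by counts. No difference could pass the threshold with 3 libraries against 3. RBCS1A made 70.3 ± 0.562% of the small subunit counts in ddcc and 68.5 ± 0.976% in wild type (SD, n = 3 each, exact permutation p = 0.1, adjusted 0.16). The libraries did not overlap by counts, but they did by counts per kilobase (kb) of exon, where p was 0.2 in the exact test. RBCS3B made 21.8 ± 0.199% in ddcc and 23.6 ± 0.799% in wild type, again without overlap (exact p = 0.1, adjusted 0.16). RBCS1B made 1.50 ± 0.136% in ddcc and 1.32 ± 0.0347% in wild type (exact p = 0.1, adjusted 0.16). Its libraries nearly met, with 1.3575% the lowest in ddcc and 1.3550% the highest in wild type. RBCS2B made 6.39 ± 0.395% in ddcc and 6.55 ± 0.405% in wild type, with overlapping libraries (exact p = 0.5, adjusted 0.571). These shares rest on how reads of near-identical copies were divided or left out, as described above.

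**Figure D2:**
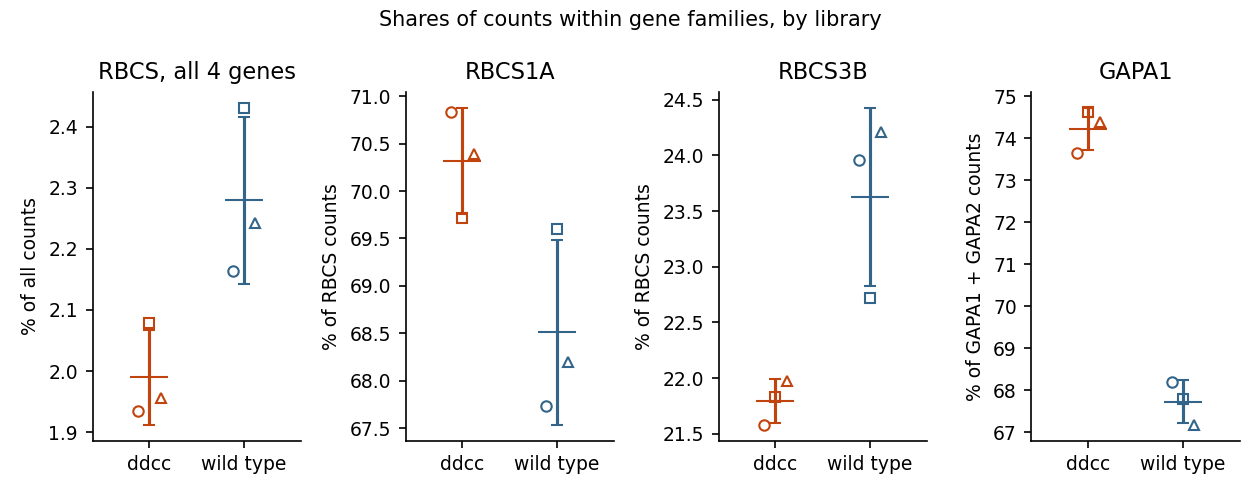
Shares of counts in percent (vertical axes, which do not start at 0) for the summed small subunit genes among all counts, RBCS1A and RBCS3B among small subunit counts, and GAPA1 among GAPA1 plus GAPA2 counts, with ddcc left of wild type in each panel. Symbols are libraries (circle, square and triangle for replicates 1, 2 and 3), with mean and SD of 3; the panels have different scales, the GAPA1 share is 74.2% in ddcc and 67.7% in wild type, and the genotypes overlap in none of the 4 panels.

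RCA, on the minus strand of chromosome 2 at 16570746 to 16573692, had 4626, 4804 and 4599.6 CPM in ddcc leaves, against 5451, 5418 and 5139 CPM in wild-type leaves. The groups did not overlap and the ddcc libraries lay close together. The log2 fold change was −0.19 (SE 0.05, 95% interval −0.30 to −0.08, adjusted p = 0.0144), and the call was lost only without ddcc replicate 3 (adjusted p = 0.0600) among the 15 alternatives. Per kb, the ratio of RCA to summed small subunit transcripts was 0.144 ± 0.00337 in ddcc and 0.140 ± 0.00735 in wild type (SD, n = 3 each, exact permutation p = 0.5, adjusted 0.571). The libraries overlapped in that ratio.

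In the reduction stage, GAPA2 was called lower while its close relative GAPA1 was not. GAPA1 and GAPA2 encode the A subunit of the plastid glyceraldehyde-3-phosphate dehydrogenase, which uses NADPH to make triose phosphate, and GAPB encodes its B subunit. GAPA1 lies on the plus strand of chromosome 3 at 9794862 to 9797045, GAPA2 on the minus strand of chromosome 1 at 4392438 to 4394454 and GAPB on the plus strand of chromosome 1 at 16127353 to 16129895. The coding sequences of GAPA1 and GAPA2 are 85.8% identical, and no 50-base exon window of either was found elsewhere. The 60 coding bases that differ most between them are printed to show how far apart the copies are, with the 17 differing positions in capitals, from base 403 of the GAPA1 and base 538 of the GAPA2 coding sequence.
GAPA1: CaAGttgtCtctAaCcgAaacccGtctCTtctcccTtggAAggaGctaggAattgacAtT
GAPA2: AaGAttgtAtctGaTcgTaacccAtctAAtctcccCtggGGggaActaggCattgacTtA

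GAPA2 had 541, 549 and 513 CPM in ddcc leaves, against 731.5, 709.5 and 675 CPM in wild-type leaves. All ddcc libraries were far below all wild-type libraries. The level fell by 24.3% (log2 fold change −0.40, SE 0.05, 95% interval −0.52 to −0.29, adjusted p = 2.75e-04), the largest fall of the 10 genes, and was called in all 15 alternatives.

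GAPA1 had 1511.5, 1614 and 1491 CPM in ddcc leaves, against 1569, 1494 and 1382 CPM in wild-type leaves. The genotypes overlapped, and GAPA1 was the only 1 of the 10 with a positive log2 fold change, of 0.05 (SE 0.06, 95% interval −0.08 to 0.18, adjusted p = 0.532). GAPA1 thus made 74.2 ± 0.506% of the counts of the pair in ddcc and 67.7 ± 0.518% in wild type (SD, n = 3 each). The exact permutation p was 0.1, the smallest possible, and 0.16 adjusted over the 8 shares and ratios. The 3 ddcc libraries stood at 73.7%, 74.6% and 74.4%, against 68.2%, 67.8% and 67.2% in wild type. Each value had a Wilson interval of 0.870 to 1.04 percentage points in width, so the gap of 6.49 points was several times the counting error and the spread within a genotype. As a ratio, GAPA1 had 2.88 ± 0.0755 counts per GAPA2 count in ddcc and 2.10 ± 0.0496 in wild type.

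GAPB had 893, 869.6 and 808 CPM in ddcc leaves, against 928, 913 and 855 CPM in wild-type leaves. The genotypes overlapped, with a log2 fold change of −0.07 (SE 0.06, 95% interval −0.19 to 0.06, adjusted p = 0.399). Per kb, summed A subunit transcripts stood at 2.62 ± 0.116 for each GAPB transcript in ddcc and 2.64 ± 0.0419 in wild type (SD, n = 3 each, exact permutation p = 0.8, adjusted 0.8). The libraries overlapped in the ratio of A to B subunit transcripts, whereas they did not in the GAPA1 share.

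The 2 genes of the regeneration stage lay close to the threshold, SBPASE on one side of it and PRK on the other. SBPASE, on the plus strand of chromosome 3 at 20709294 to 20711640, removes a phosphate from sedoheptulose-1,7-bisphosphate. It had 389, 405 and 359 CPM in ddcc leaves, against 432, 459.9 and 414 CPM in wild-type leaves. The groups did not overlap, though ddcc replicate 2 and wild-type replicate 3 were close. The log2 fold change was −0.18 (SE 0.06, 95% interval −0.31 to −0.04, adjusted p = 0.0491). SBPASE was called in 8 of 15 alternatives and lost with median-of-ratios size factors (adjusted p = 0.0525), on library totals (0.102), and without ddcc replicate 1 (0.0847), ddcc replicate 3 (0.183), wild-type replicate 1 (0.0988), wild-type replicate 2 (0.175) or wild-type replicate 3 (0.0508).

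PRK, on the plus strand of chromosome 1 at 11532199 to 11534639, makes ribulose-1,5-bisphosphate, the acceptor of CO2. It had 1357, 1416 and 1373 CPM in ddcc leaves, against 1579.5, 1526 and 1447 CPM in wild-type leaves. The groups did not overlap, but the log2 fold change of −0.14 (SE 0.05, 95% interval −0.25 to −0.02) did not pass the threshold (edgeR adjusted p = 0.0701). With only features of a mean of at least 50 counts tested, it passed (log2 fold change −0.15, adjusted p = 0.0452).

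Levels were compared between genes per kb of exon. Exons of all annotated transcripts of a gene were merged for this. That gave 1894 bases for RBCS1B and 935 for RBCS2B, though the coding sequence of each has 546. The order, with the last place of RBCS1B, holds for these lengths, and lengths of single transcripts were not tried. RBCS1A stood at 10912 ± 345 CPM per kb in ddcc and 12477 ± 886 in wild type, and RBCS1B, the lowest of the 10, at 156 ± 18.3 in ddcc and 160.5 ± 13.4 in wild type (SD, n = 3 each). In both genotypes the order of these levels was RBCS1A, RBCS3B, RCA, RBCS2B, GAPA1, PRK, GAPB, GAPA2, SBPASE and RBCS1B. Neighbours in this order did not overlap across libraries, with the exception of GAPA1 and PRK in wild type, where GAPA1 averaged 846 ± 53.7 and PRK 803 ± 35.2 CPM per kb. GAPB and GAPA2 stood 1.40-fold apart in ddcc and 1.11-fold apart in wild type. Dividing by the number of exon windows found nowhere else, a scale chosen after seeing the data, gave the same order. It used the same merged exons.

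**Figure D3:**
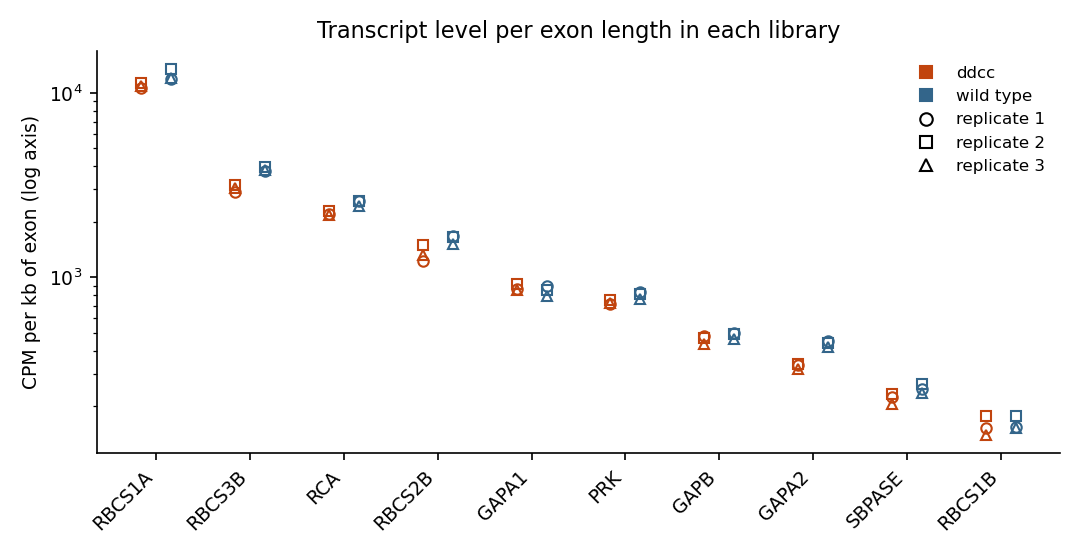
Transcript level per kb of exon (CPM per kb, log axis) of the 10 genes in each library, ordered from highest to lowest, with ddcc in orange left of wild type in blue and a symbol for each replicate. RBCS1A lies near 10912 CPM per kb in ddcc and 12477 in wild type, RBCS1B near 156 in ddcc and 160.5 in wild type, and the order of the genes is the same in both.

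The large subunit gene RBCL (ATCG00490) is transcribed in the plastid, and its transcripts mostly lack the poly(A) tails by which these libraries were selected. It had 145, 155 and 143 CPM in ddcc, against 134, 141 and 194 CPM in wild type. The genotypes overlapped because wild-type replicates 1 and 2 lay below, and replicate 3 above, all ddcc libraries. The log2 fold change of −0.08 (adjusted p = 0.648) turned to 0.10 without wild-type replicate 3. These counts are not a measure of the large subunit transcript pool.

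The other genes of the cycle were described from a list of 15, which includes the regulatory CP12 genes. For this and the lists that follow, the shares of all features tested were 12.7% called lower and 15.5% higher. Among the 362 genes with a mean count at least that of the lowest of the 10 genes, the shares were 33.4% and 23.8%. Of these, 6 were called lower in ddcc and 3 higher, with a median log2 fold change of −0.14. Both phosphoglycerate kinase genes, which act just before the dehydrogenase, were lower: PGK1 at 1147 ± 23.8 CPM in ddcc and 1339 ± 21.1 CPM in wild type (log2 fold change −0.22, adjusted p = 0.00451), and PGK2 at 158 ± 8.82 CPM in ddcc and 189 ± 4.31 CPM in wild type (−0.26, adjusted p = 0.00577). HCEF1, the main plastid fructose-1,6-bisphosphatase, had 577 ± 17.2 CPM in ddcc and 686 ± 24.6 CPM in wild type (−0.25, adjusted p = 0.00410). CFBP2, a second plastid fructose-1,6-bisphosphatase gene (−0.27), the triose phosphate isomerase gene TIM (−0.18) and the ribose-5-phosphate isomerase gene RPI3 (−0.25) were also called lower. CFBP2 lost the call with DESeq2 (adjusted p = 0.0565) and without ddcc replicate 3 (0.0849), wild-type replicate 2 (0.0739) or wild-type replicate 3 (0.0546). TIM lost it on library totals (0.0506) and without ddcc replicate 1 (0.0535), ddcc replicate 3 (0.0747), wild-type replicate 2 (0.0724) or wild-type replicate 3 (0.0597). RPI3 lost it on library totals (0.0847) and without each library but ddcc replicate 2 (0.0535 to 0.153). The count of lower genes in the list was 3 without ddcc replicate 3, wild-type replicate 2 or wild-type replicate 3.

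The aldolase genes did not move as one. FBA1, which encodes a plastid fructose-bisphosphate aldolase, was higher, at 639 ± 32.6 CPM in ddcc and 537 ± 24.3 CPM in wild type (SD, n = 3 each, log2 fold change 0.25, adjusted p = 0.00783, called in all 15 alternatives). FBA2, the most abundant of the 3 aldolase genes by counts, had 1736 ± 63.1 CPM in ddcc and 1919 ± 69.7 CPM in wild type and was not called (−0.14, adjusted p = 0.0574), though it was with DESeq2 (0.0496) and with features under a mean of 50 counts left out (0.0391). FBA3 was called higher (0.15, adjusted p = 0.0467), but in only 5 of the 15 alternatives and not without any 1 of the 6 libraries (0.0562 to 0.123). CP12 proteins bind the dehydrogenase and phosphoribulokinase into an inactive complex. Of their genes, the low-level CP12-3 was higher, at 15.1 ± 1.23 CPM in ddcc and 11.3 ± 0.995 CPM in wild type (0.41, adjusted p = 0.00934), while CP12-1 (0.04) and CP12-2 (0.08) were not called. The transketolase genes TKL1 (−0.01) and TKL2 (−0.43, at 3.53 to 6.24 CPM, called without ddcc replicate 2 with adjusted p = 0.0472) and the ribulose-5-phosphate epimerase gene RPE (−0.02) were not called either. Together the 25 genes, with the CP12 genes included, gave 12 lower, 3 higher and a median of −0.18.

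**Figure D4:**
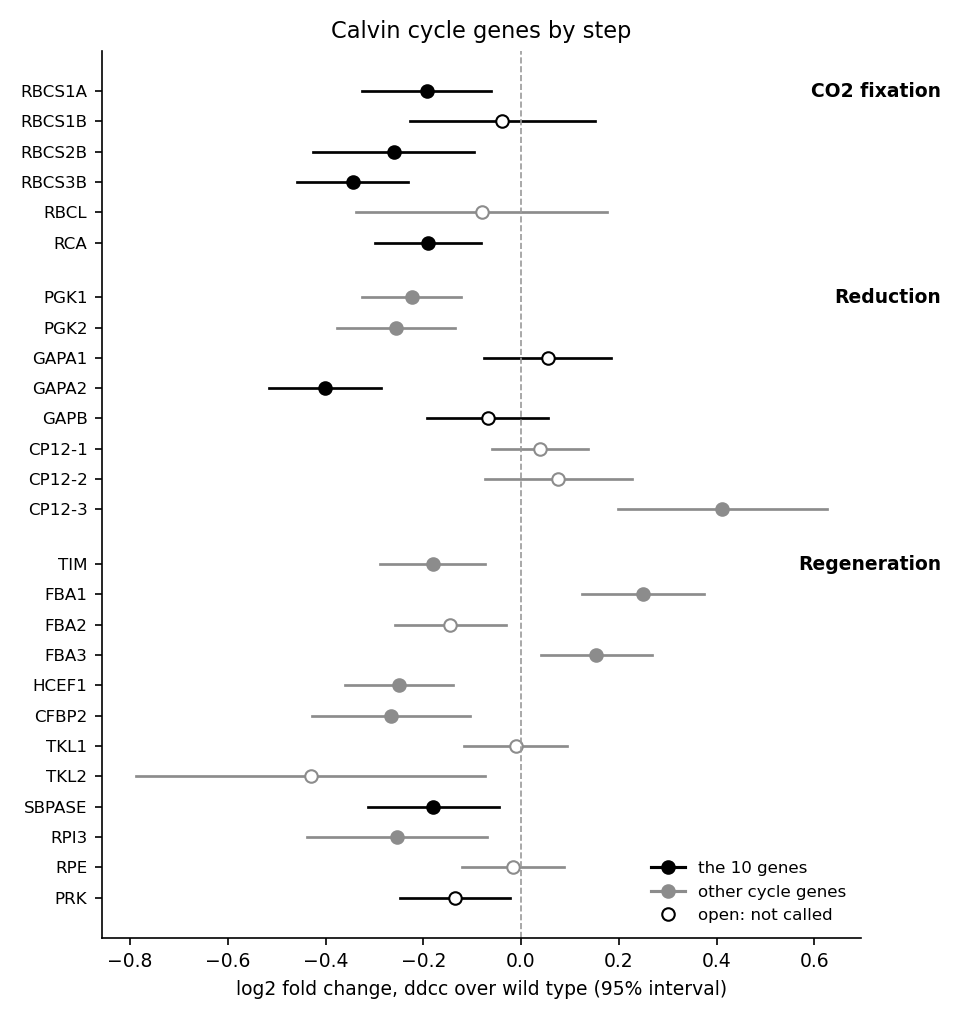
Log2 fold change, ddcc over wild type, with 95% interval (horizontal axis) for the 10 genes in black, the 15 other Calvin cycle genes and RBCL in grey, by stage of the cycle. Filled points were called at adjusted p under 0.05; GAPA2 at −0.40 and CP12-3 at 0.41 were the outermost called genes.

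Genes for Rubisco folding and assembly were lower where they changed. Of 13 listed genes 8 were called lower and none higher, with a median log2 fold change of −0.31. They included subunits of the plastid chaperonin that folds Rubisco subunits and its co-chaperonins: CPN60B2 (28.1, 32.6 and 26.9 CPM in ddcc, against 41.8, 53.2 and 43.8 CPM in wild type, log2 fold change −0.67), CPN60A1 (−0.46), CPN20 (−0.36) and CPN10 (−0.31), each called in all 15 alternatives. All 13 genes of the list had a negative log2 fold change.

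The thioredoxin system, which reduces and thereby activates SBPASE, PRK and the dehydrogenase in the light, was described from 9 genes. Of these, 6 were called lower and none higher, with a median of −0.20. Both f-type thioredoxins were lower: TRXF1 had 125 ± 3.16 CPM in ddcc and 179 ± 3.80 CPM in wild type (log2 fold change −0.51, adjusted p = 3.51e-05), and TRXF2 had 86.9 ± 2.50 CPM in ddcc and 125 ± 4.64 CPM in wild type (−0.53, adjusted p = 4.51e-05). The m-type TRXM4 and TRXM1 differed less, at −0.20 each. The call of TRXM1 was lost without ddcc replicate 1 (adjusted p = 0.0505), and the count of lower genes in the list was then 3.

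**Figure D5:**
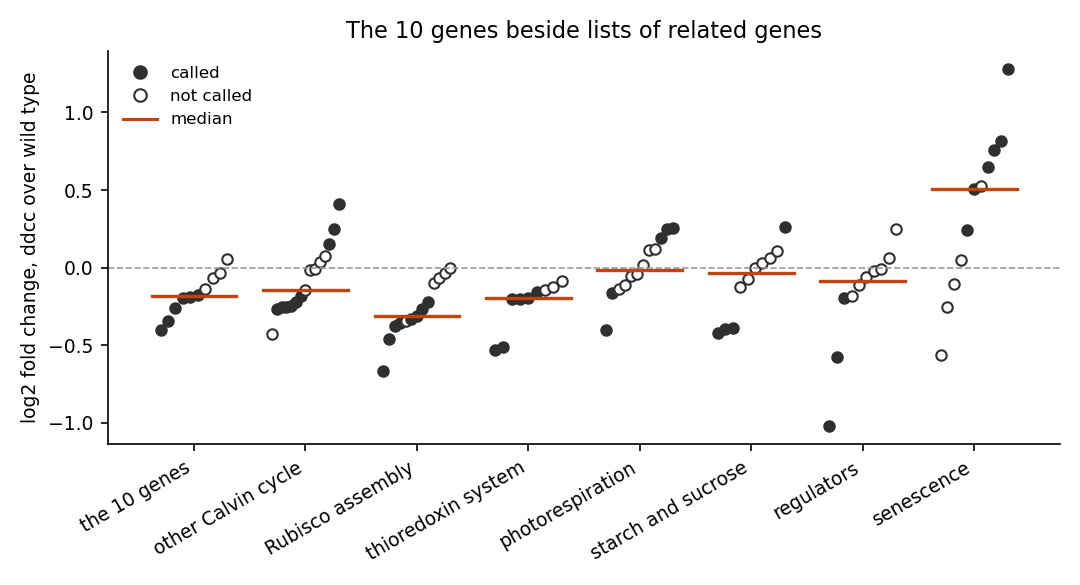
Log2 fold change, ddcc over wild type (vertical axis), of each tested gene in the 10-gene set and in 7 lists of related genes; filled points were called at adjusted p under 0.05 and lines are list medians. The medians are −0.18 for the 10 genes, −0.31 for Rubisco assembly, −0.20 for the thioredoxin system and 0.51 for senescence.

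Pathways that use the products of Rubisco were mixed. Photorespiration recycles the product of Rubisco's reaction with oxygen, and 12 of its 13 listed genes were tested. PGLP1 (AT5G36700), of the pair above, had too few counts, at 0 to 4 per library. Of the 12, 3 were called higher and 2 lower, with a median of −0.01. The peroxisomal hydroxypyruvate reductase HPR1 (log2 fold change 0.25) and the aminotransferases AGT1 (0.25) and GGT1 (0.19) were higher, and the plastid glycolate and glycerate transporter PLGG1 was lower, at 124 ± 3.98 CPM in ddcc and 164 ± 3.98 CPM in wild type (−0.40, adjusted p = 2.11e-04). GGT1 lost its call without ddcc replicate 1 (adjusted p = 0.0591), ddcc replicate 3 (0.0649) or wild-type replicate 2 (0.0723), and the count of lower genes was 1 without ddcc replicate 2, ddcc replicate 3, wild-type replicate 1 or wild-type replicate 3. Of 10 starch and sucrose genes 3 were lower and 1 higher (median −0.04). The lower ones were APL1 (−0.39) and APS1 (−0.40), subunits of ADP-glucose pyrophosphorylase, and the starch synthase SS1 (−0.42), and the higher one was the sucrose phosphate synthase SPSA1 (0.26). These 4 were called in all 15 alternatives.

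Among regulators of photosynthesis genes, GLK2 was lower in ddcc. GLK2, a transcription factor that activates nuclear photosynthesis genes, had 49.3, 55.2 and 56.8 CPM in ddcc, against 113, 105 and 108 CPM in wild type. The level fell by 50.7% (log2 fold change −1.02, SE 0.06, adjusted p = 1.66e-06), with all ddcc libraries far below all wild-type libraries. Its partner GLK1 was not called (277 ± 17.9 CPM in ddcc, 279 ± 15.0 CPM in wild type, log2 fold change −0.01). Of 10 regulators tested from a list of 11, 3 were called lower and none higher (median −0.09). The others were the plastid sigma factors SIG5 (−0.58) and SIG1 (−0.20), of which SIG1 lost its call on library totals (adjusted p = 0.0625) and without each library but ddcc replicate 1 (0.0512 to 0.108). The part of GLK2 in the levels of the 10 genes was not tested.

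Leaf age and time of day can both move photosynthesis transcripts, so markers of each were read beside the 10 genes. Of 13 senescence genes 11 were tested, with 6 called higher in ddcc, none lower, and a median log2 fold change of 0.51. The log2 fold change was positive in 8 of the 11 and negative in 3. Those 3 were SAG13 (−0.56), GLN1-1 (−0.25) and PAO (−0.11), none of them called with all 6 libraries. The list summed to 1762 to 2137 CPM in ddcc and 968 to 1204 CPM in wild type. SEN1, a dark- and senescence-induced gene, had 1280 ± 199 CPM in ddcc and 526 ± 102 CPM in wild type (log2 fold change 1.28, adjusted p = 8.00e-05). It made most of the list's sum in ddcc. WRKY53 (0.82), a transcription factor of early senescence, SAG101 (0.65) and the chlorophyll b reductase NYC1 (0.24) were also higher. Without ddcc replicate 2 the count of lower genes was 2. SAG12, the defining marker of late senescence, held 0, 40 and 0 counts in ddcc and 0, 37 and 0 in wild type. Of 10 clock genes 4 were called higher and none lower (median 0.03), all 4 of the evening: TOC1 (0.75), LUX (0.69), ELF4 (0.78) and ELF3 (0.39). Of the 10, 5 had a positive and 5 a negative log2 fold change. The negative ones were CCA1 (−0.13), LHY (−0.65), PRR9 (−0.35), PRR7 (−0.06) and PRR5 (−0.13), none of them called with all 6 libraries. Without ddcc replicate 2 or wild-type replicate 2, 1 clock gene was called lower. The harvest time is not given, and the part of leaf age or time of day in the levels of the 10 genes was not tested.

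Transcripts with a profile most like that of the small subunits were sought over the 6 libraries. Likeness was the root-mean-square distance, in log2(CPM + 1), between a gene's centred profile and the mean centred profile of the 4 RBCS genes, over 12981 genes with a mean of at least 100 counts. The 5 nearest were AT3G01860 (0.0220), MCD1 (0.0226), AT1G60000 (0.0239), AT5G56380 (0.0267) and AT1G12244 (0.0278). MCD1 is a plastid division protein. Only AT1G60000 of the 5 was called, at 42.7, 47.7 and 43.0 CPM in ddcc, against 51.4, 56.7 and 51.3 CPM in wild type (log2 fold change −0.26, adjusted p = 0.0159). It lost its call without ddcc replicate 1 (0.0525), ddcc replicate 3 (0.0624) or wild-type replicate 2 (0.0650), and AT3G01860 (0.0253), MCD1 (0.0262) and AT1G12244 (0.0456) were called without ddcc replicate 2. In these 5 genes, as in RBCS1A and RBCS3B, replicate 2 was the highest library of each genotype.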

How the data were processed

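Poly(A)-selected RNA of 28-day-old leaves was sequenced in 3 ddcc and 3 wild-type libraries. What the authors deposited are raw counts, in whole numbers, for each gene and transposable element. Per the submitters' processing notes, Trim Galore 0.6.0, cutadapt 1.15 and STAR 2.7.0f were used with the build TAIR10. How reads were counted, by strand or with several matches, is not given in the sources used here. Gene models, symbols and sequences came from RefSeq (TAIR10.1), and whether the authors counted on the same models was not checked. A moss batch file was not used.

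The 31335 genes and 31189 transposable elements were filtered with filterByExpr (minimum count 10), which left 18126 genes and 372 elements, and scaled by TMM. Genotype alone was fitted with edgeR 4.0.16 (R 4.3.3; quasi-likelihood test), with Benjamini-Hochberg adjustment over every tested feature and calls at adjusted p under 0.05. The biological coefficient of variation was 7.61%. Each standard error is the size of the log2 fold change over √F. CPM uses TMM-scaled totals. Shares, 1 value per library, had exact two-sided permutation tests. Replicate pairs differed by more than sampling noise (chi-square per degree of freedom 3.32 to 7.65), so all 6 libraries were kept apart. Alternatives were median-of-ratios factors, library totals, scaling without the 10 genes, filters at 1 count in total or at a mean of 50 counts, robust dispersion, DESeq2 1.42.0, GC and length offsets, a replicate block, and leaving out each library in turn.

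The 10 genes and the lists were chosen with earlier results of these data known. The text names all 10 genes, the genes of the cycle list, RBCL, the mutated genes and the 5 nearest profiles. From each related list it names up to 4 called genes with the smallest p. GLK1, SAG12, the pair AT5G36700 and AT5G36790, and the senescence and clock genes with negative log2 fold changes were named after their values were seen. The printed coding stretches were chosen from alignments by MAFFT 7.526. Percent identities came from global pairwise alignments by Biopython 1.88, over columns without gaps.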

Additional observations from a re-analysis of the deposited data

How the results depend on the processing

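The numbers of features called held within 1.5 times under all alternatives: with a library left out they ran from 2282 to 2941 higher and 1629 to 2348 lower. RBCS3B and GAPA2 were called lower in all 15 alternatives, and none of the 10 genes was called higher in any. Of the 10 genes, 2 to 6 were called lower with a library left out, with 3 without ddcc replicate 1, 2 without ddcc replicate 3 and 3 without wild-type replicate 2. Leaving out a library also removes information, and the cause of each change was not tested. The leave-one-out log2 fold changes ran from −0.22 to −0.13 for RBCS1A, −0.13 to 0.036 for RBCS1B, −0.34 to −0.20 for RBCS2B, −0.22 to −0.17 for RCA and −0.22 to −0.13 for SBPASE. On library totals RBCS1A gave −0.16 and SBPASE −0.14, both not called; SBPASE gave −0.18 with median-of-ratios factors, not called; PRK gave −0.15 and was called with a mean of at least 50 counts. On library totals TKL1 turned to 0.024 and RPE to 0.019; with a library left out TKL1 gave −0.031 to 0.014 and RPE −0.034 to 0.0038. RBCL gave −0.18 to 0.10.

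Lower calls ranged from 3 to 7 for the other cycle genes (3 without ddcc replicate 3, wild-type replicate 2 or wild-type replicate 3), 3 to 5 for thioredoxins (3 without ddcc replicate 1), 1 to 2 for photorespiration (1 without ddcc replicate 2, ddcc replicate 3, wild-type replicate 1 or wild-type replicate 3), 0 to 2 for senescence (2 without ddcc replicate 2) and 0 to 1 for the clock (1 without ddcc replicate 2 or wild-type replicate 2).

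The deviations of same-numbered libraries had correlations of −0.10, −0.08 and 0.03 over all tested features, none above 0.1, and the labels name nothing shared, so the numbers were not treated as pairs. Replicate 2 was the highest library of both genotypes for RBCS1A, RBCS1B, RBCS3B and SBPASE, though not for the others of the 10 genes. SAG12 held counts only in replicate 2 of each genotype, 40 in ddcc and 37 in wild type. What same-numbered libraries may share beyond their labels was not tested. With a replicate block, 2743 features were higher and 2178 lower, and 6 of the 10 genes were lower and 0 higher; FBA3 was then not called (0.15, adjusted p = 0.0501).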
